A study of Mus musculus with 11 samples.

Results

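Immunoglobulin heavy and light chain transcripts were followed with 57 probe sets of an Affymetrix mouse array, out of 22626 probe sets other than controls. They are all probe sets whose platform gene symbol starts with Igh, Igk or Igl, apart from Ighmbp2 and Iglon5, whatever their signal. Of the 57, 18 read heavy chain genes with a constant region symbol alone, 5 a heavy chain variable gene, 29 the kappa light chain, 3 the lambda light chain and 2 Igll1, part of the surrogate light chain. The RNA came from adventitia, the outermost coat of an artery, around the abdominal aorta. All mice were male, 78 weeks old and on standard chow. Of 11 arrays, 4 came from adventitia with artery tertiary lymphoid organs (ATLO, lymphocyte aggregates beside diseased arteries) inside the lesion area of Apoe-/- mice, strain B6.129P2-Apoe<tm1Unc>/J. A further 4 came from adventitia outside the lesion area of the same strain, and 3 from wild-type mice labelled C57BL. Tissue was cut from frozen sections with a laser, 200 sections of 10 micrometres being pooled per Apoe-/- sample. Both Apoe-/- groups thus lack Apoe, whose probe set read 86.9 to 150.2 in ATLO, 45.9 to 179.7 outside the lesion and 11969 to 13164 in wild type. The series text calls the outside-lesion group mice without lesions, and the wild-type titles carry PNS, which no label explains. The aorta of the Apoe-/- mice had been taken out together with para-aortic lymph nodes and fat. ATLO tissue was chosen for holding lymphoid aggregates, so higher lymphocyte transcripts there partly follow from the choice of tissue. No label ties an array to 1 animal, so the p-values rest on differences between samples that may be technical repeats.

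An antibody is made of paired heavy and light chains, each with a variable region that binds antigen and a constant region. A developing B cell joins V, D and J segments of the heavy chain genes and V and J segments of the kappa or lambda genes, so each B cell clone transcribes its own pair of variable regions. Naive B cells carry IgM, encoded with Ighm, and IgD at their surface. After activation they can switch to IgG, IgA or IgE by joining the same variable region to another heavy constant gene, and plasma cells transcribe the chosen chains at very high levels. Immunoglobulin genes are so alike that a probe set can read several of them. The Affymetrix ID suffix marks this in part: 30 members end in plain _at, 6 in _a_at, 4 in _s_at (shared between transcripts of a family) and 17 in _x_at (probes that may bind other sequences too). A platform symbol is therefore a name for a probe set here, not proof of 1 gene. Several probe sets named Ighm behaved so differently from each other that they are described one by one.

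Of the 57 probe sets, 41 were bright enough to be tested, that is above the 40th percentile of the array on at least 3 arrays, and 16 were not (4 heavy constant, 3 heavy variable, 8 kappa and 1 Igll1). Being bright in ATLO alone was enough to be tested, so the 41 are not a sample of all members. Ighm 1427869_at, Ighg3 1447998_at and Iglv1 1427292_at passed this filter on ATLO arrays alone. Their rise in ATLO is therefore no independent support. Igkv4-68 1427857_x_at, Igk 1426178_at and Igkv19-93 1427856_a_at also needed ATLO arrays to pass it. Among the 16, only the Igk probe set 1427757_at, with 3419 on ATLO replicate 2, and the Igkv6-15 probe set 1427859_at, with 380.2 on ATLO replicate 3, passed a signal of 200 on any array. Signals are the authors' scaled linear intensities, raised to a floor of 35.1 before log2 was taken, so that changes of dim probe sets are understated. A log2 change is the difference between group means on that scale, given with its standard error, and a probe set was called when limma gave a Benjamini-Hochberg adjusted p under 0.05 over all 14988 probe sets tested. Only bulk tissue was read, so more cells of a type and more RNA per cell cannot be told apart.

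**Figure D1:**
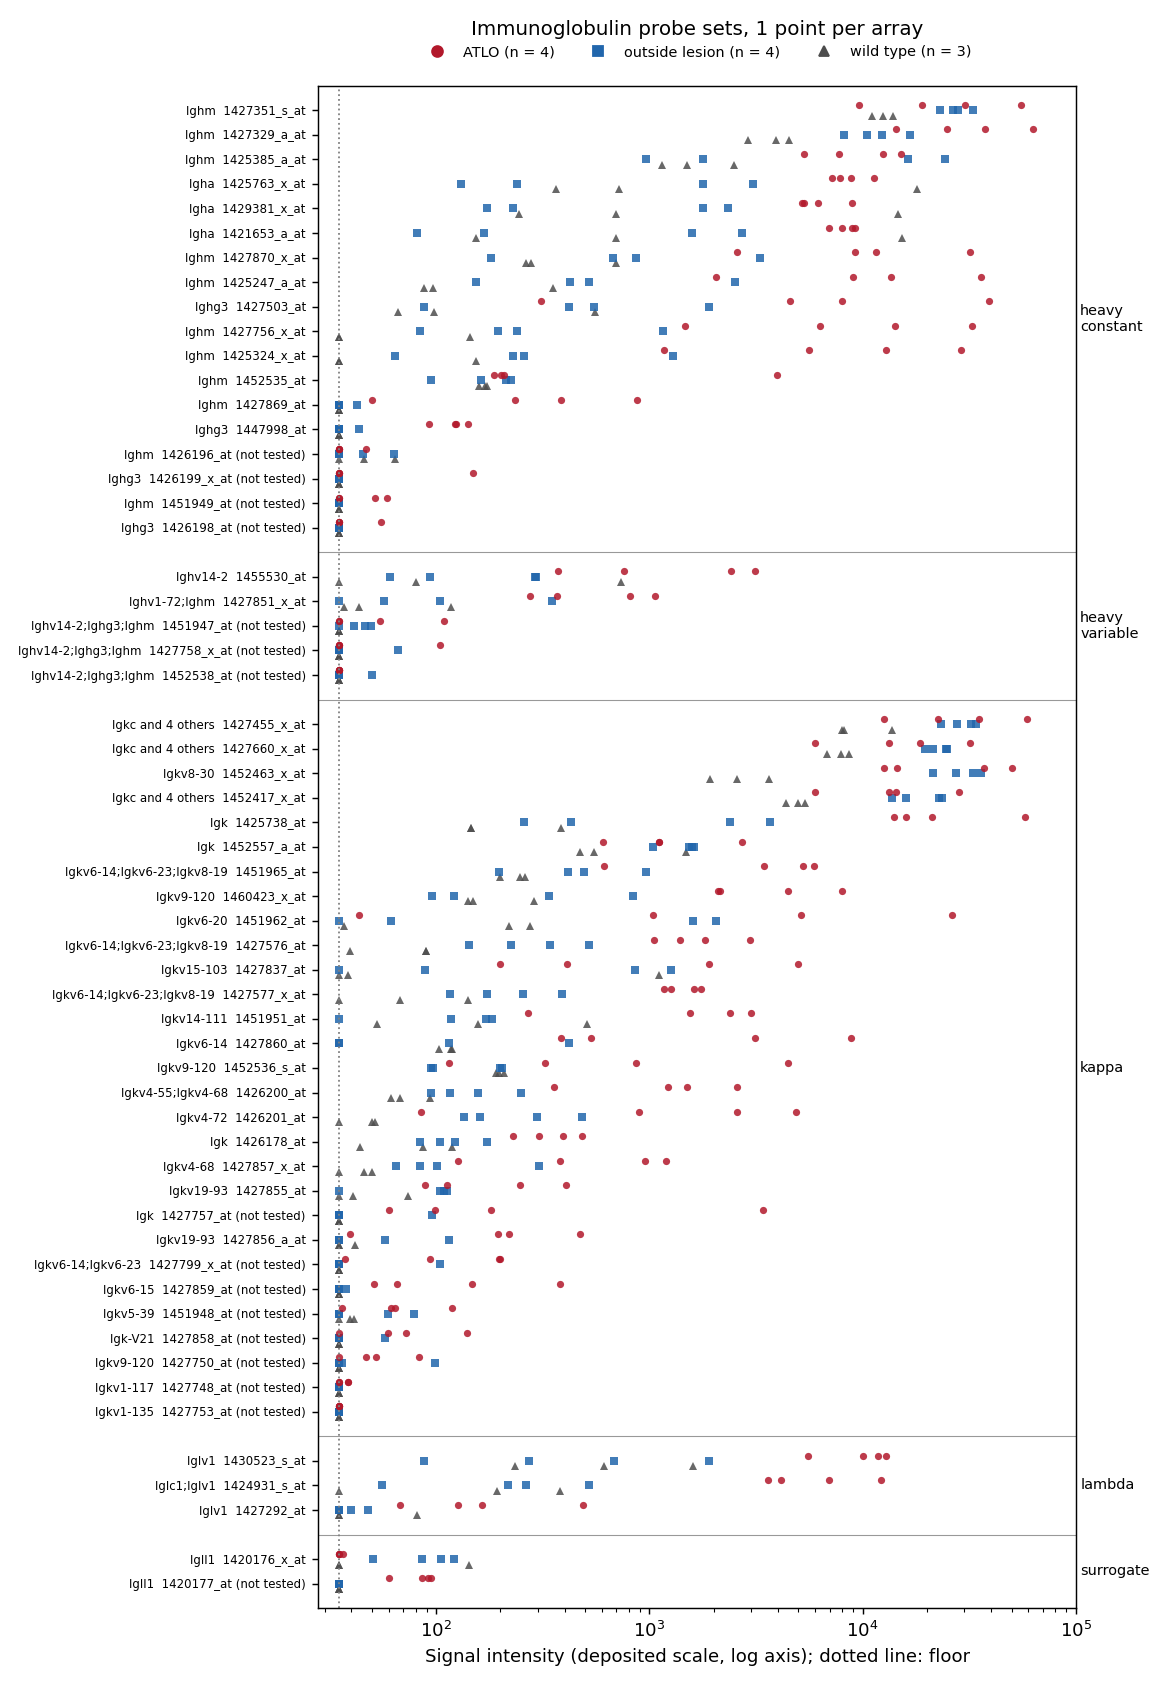
Signal of all 57 immunoglobulin probe sets on a log axis, with 1 point per array, 4 ATLO arrays (red circles), 4 outside-lesion arrays (blue squares) and 3 wild-type arrays (grey triangles); values below the floor of 35.1 are drawn at it. Most probe sets that leave the floor are brightest in ATLO, whereas the 4 brightest kappa probe sets overlap between ATLO and outside-lesion arrays.

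Between ATLO and outside-lesion adventitia, 25 of the 57 probe sets rose in ATLO by limma, 0 fell, 16 did not pass and 16 were not tested. At an unadjusted p under 0.05, 30 were higher and 1, Igll1 1420176_x_at, was lower. By chain the risers were 10 of 18 heavy constant, 2 of 5 heavy variable, 10 of 29 kappa and 3 of 3 lambda probe sets, and neither Igll1 probe set. Over all probe sets tested, 17.9% rose and 13.9% fell. The median log2 change over all 57, tested or not, was 1.71, beside 0.10 over all probe sets tested. By chain the median was 2.22 for heavy constant, 0.29 for heavy variable, 1.71 for kappa and 4.52 for lambda. Of the 41 tested, 17 lay higher in ATLO with no overlap between the arrays, where 17.2% of all probe sets tested did, and 1, an Igll1 probe set, lay lower, where 13.2% did. An actin covariate left 17 calls, and so did leaving out ATLO replicate 2. Of all probe sets tested, 17% and 26.7% were called either way in these fits, beside 31.9% in the main fit.

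Against wild type, 29 of the 57 rose in ATLO and 0 fell (31 and 0 at an unadjusted p under 0.05 by limma), with 12 not passing, where 13.4% of all tested probe sets rose. These were 8 heavy constant, 2 heavy variable, 16 kappa and 3 lambda probe sets, and the median log2 change over all 57 was 2.20, beside -0.05 over all tested. Between outside-lesion and wild-type adventitia, 4 of the 57 rose outside the lesion and 0 fell (12 and 0 at an unadjusted p under 0.05 by limma), where 1.72% of all tested probe sets rose and 3.26% were called either way. The 4 were 1 Ighm and 3 kappa probe sets, and the median over all 57 was 0.39, beside -0.11. Of the 41 tested, 11 lay higher outside the lesion with no overlap and 0 lay lower, beside 8.15% and 13.3% of all probe sets tested. Overlap was judged on signals before the floor was set, although values under the floor have no order. Among the 11 was Ighm 1427869_at, where only outside-lesion replicate 3, at 42.3, passed the floor (log2 change 0.07, limma adjusted p = 0.968). The count of calls moved between 1 and 8 with the processing and with single arrays left out, and of the 4 only the Igkv8-30 probe set 1452463_x_at was called in every fit that held it. The share of all tested probe sets called either way moved too in these fits, between 0.141% and 10.2%. The 3 comparisons share arrays, so their counts are not independent. Wild-type RNA had another extraction kit and 24 h of in vitro transcription in place of 68 h, so genotype and RNA preparation cannot be told apart in either comparison with wild type.

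**Figure D2:**
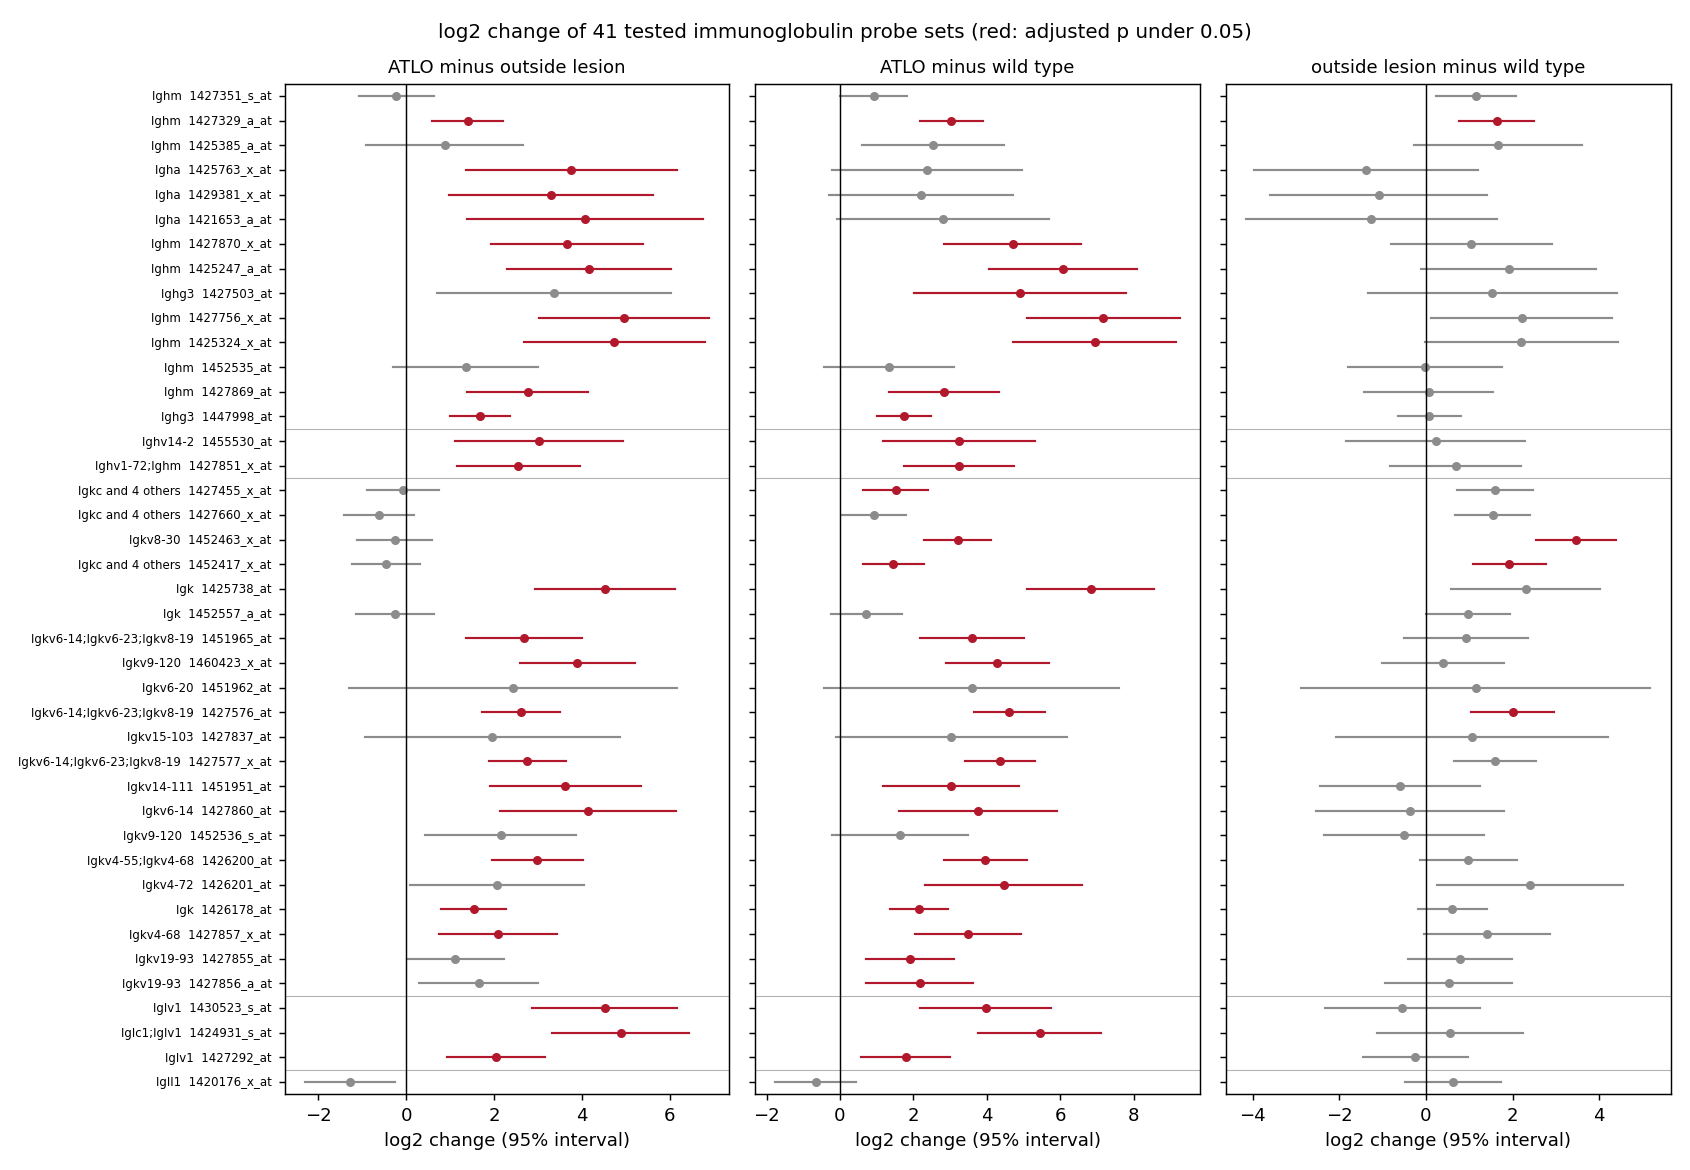
log2 change with its 95% interval for the 41 tested immunoglobulin probe sets in the 3 comparisons, by chain, with called probe sets in red. All red points lie right of 0, with 25 in the left, 29 in the middle and 4 in the right panel, where outside-lesion is set against wild type.

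Arrays differed in ways that touch the brightest members. The highest signal of any probe set was 17299 on ATLO replicate 2 and lay between 27379.9 and 108479.8 on the other 10 arrays. On ATLO replicate 2, 15 members lay above 50% of that highest signal, among 224 probe sets in all that did. On the other arrays 13 to 102 probe sets lay above 50% of the array's own highest signal. On ATLO replicate 1 an Ighm probe set was itself the brightest of all. Together the 57 probe sets, 0.252% of those on the array, made up 1.34% to 2.59% of the summed signal on ATLO arrays, 0.744% to 1.14% on outside-lesion arrays and 0.269% to 0.679% on wild-type arrays. The actin control's 3' to 5' ratio, which rises as RNA degrades, was 1.71 to 8.14 in ATLO, 6.22 to 11.99 outside the lesion and 4.19 to 5.40 in wild type. ATLO replicate 2 had the lowest ratio. Whether an upper limit of the scanner or RNA quality had a part in these results was not tested beyond the fits named here.

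The brightest Ighm probe sets were high in all 3 groups. Ighm 1427351_s_at read 55129.6, 9619.7, 30165 and 19006 in ATLO replicates 1 to 4, 26691, 33069, 28126 and 23001 outside the lesion and 13867, 12452 and 11106 in wild-type replicates 1 to 3. The outside-lesion arrays all lay above wild type, and the ATLO arrays spread below and above both. ATLO and outside-lesion means differed by a log2 change of -0.23 ± 0.40 (95% interval -1.08 to 0.63, limma adjusted p = 0.7), and outside-lesion and wild type by 1.15 ± 0.43 (adjusted p = 0.145). Without ATLO replicate 2 the change between ATLO and outside-lesion was 0.20 (adjusted p = 0.653), and ATLO against wild type then passed (1.35, adjusted p = 0.0103, against 0.92 and 0.128 with all arrays). The outside-lesion rise over wild type passed as well in that fit (adjusted p = 0.046) and with only those groups fitted (0.0376). ATLO against wild type also passed with an actin covariate (0.0316) and with array weights (0.0471).

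A step from wild type through outside-lesion to ATLO was read by Ighm 1427329_a_at, at 63266, 14399, 37569 and 24994 in ATLO, 8213, 16667, 12309 and 10538 outside the lesion and 3905, 4514 and 2907 in wild type. Only ATLO replicate 2 fell within the outside-lesion range, and no wild-type array reached the other groups. This probe set passed in all 3 comparisons by limma, with log2 changes of 1.4 for ATLO against outside-lesion (adjusted p = 0.0113), 3.03 ± 0.40 for ATLO against wild type (adjusted p = 2.66e-04) and 1.64 ± 0.40 for outside-lesion against wild type (adjusted p = 0.0448). The first call was lost with no filter on dim probe sets (adjusted p = 0.0513). The last was lost without any 1 outside-lesion or wild-type array or ATLO replicate 3 or 4 (adjusted p between 0.0571 and 0.142). It was also lost with no filter (0.124), no intensity trend (0.0668), the replicate block (0.0815) and an actin covariate (0.149). Ighm 1425385_a_at took another course, with 5326, 15179, 7714 and 12413 in ATLO against 1786, 959.8, 16387 and 24416 outside the lesion and 1496, 2484 and 1145 in wild type. Its outside-lesion arrays split, replicates 3 and 4 lying above every ATLO array and replicates 1 and 2 below them all. No comparison of this probe set passed (adjusted p = 0.459, 0.0515 and 0.284 for ATLO against outside-lesion, ATLO against wild type and outside-lesion against wild type). ATLO against wild type did pass in 10 other fits. These were the 4 without an outside-lesion array (adjusted p between 0.0189 and 0.0455), quantile normalization (0.0371), equal array medians (0.0417), a floor at the 30th percentile (0.0477), a filter at the 60th (0.0486), only the groups compared (0.00119) and array weights (0.0261).

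A set of 5 other Ighm probe sets had lower mean signals in both other groups than in ATLO. All ordered the ATLO arrays in 1 way, with replicate 3 highest, then 2, 4 and 1. Ighm 1427756_x_at read 1472, 14194, 32718 and 6282 in ATLO replicates 1 to 4, 84.2, 238, 194 and 1161 outside the lesion and 2.6, 1.9 and 144 in wild type. Every ATLO array lay above every other array, although replicate 3 was more than 20 times replicate 1. It had the largest rise of all 57 between ATLO and outside-lesion, a log2 change of 4.96 ± 0.90 (adjusted p = 9.43e-04), and between ATLO and wild type (7.17 ± 0.97, adjusted p = 3.00e-04). Because wild-type replicates 1 and 2 lay below the floor, this last change depends on it. With outside-lesion replicate 4 overlapping ATLO replicate 1 in the first 3, Ighm 1425324_x_at, 1425247_a_at, 1427870_x_at and the dimmer 1427869_at rose alongside, by log2 changes of 4.74, 4.17, 3.66 and 2.77 over outside-lesion (adjusted p between 0.00207 and 0.0049). None of the 5 passed between outside-lesion and wild type (adjusted p between 0.199 and 0.968). Of the 5, 1427869_at was bright enough to be tested on ATLO arrays alone, so its call adds no independent support. Outside the lesion the first 4 were highest on replicate 4, where 1425247_a_at read 2524 against 153.5 to 519 on the other outside-lesion arrays.

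The remaining Ighm probe sets were dim or rested on 1 array. Ighm 1452535_at read 186, 3951, 202 and 207 in ATLO, where replicate 2 stood alone, 94.6, 162, 211 and 224 outside the lesion and 169, 173 and 158 in wild type, and no comparison passed (ATLO against outside-lesion, log2 change 1.35 ± 0.76, adjusted p = 0.2). The untested 1426196_at and 1451949_at stayed at or below 64.1 on every array.

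IgA transcripts, which encode the antibody class typical of mucosal surfaces, were even across ATLO arrays and uneven elsewhere. Igha 1425763_x_at read 7224, 11320.1, 8813 and 7836 in ATLO, 1783, 130.1, 239.5 and 3057 outside the lesion and 363, 18045 and 720.1 in wild type. All ATLO arrays lay above all outside-lesion arrays, and wild-type replicate 2 lay above every other array of the study, while the other wild-type arrays stood with the outside-lesion range. The other Igha probe sets repeated this, with 14601 (1429381_x_at) and 15261 (1421653_a_at) on wild-type replicate 2 and at most 699 on replicates 1 and 3. All 3 rose in ATLO over outside-lesion, by log2 changes of 4.07 ± 1.24 (1421653_a_at), 3.76 ± 1.11 (1425763_x_at) and 3.30 ± 1.07 (1429381_x_at), with adjusted p = 0.0234, 0.0202 and 0.0317. These 3 calls were lost without ATLO replicate 2 (adjusted p between 0.0528 and 0.0787), without outside-lesion replicate 2 (0.0588 to 0.0873) or 3 (0.06 to 0.0895). They were also lost with an actin covariate (adjusted p between 0.172 and 0.239), no filter (0.0896 to 0.12) and array weights (0.0584 to 0.0842), and 1429381_x_at was lost without any 1 ATLO array.

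Against wild type none of the 3 Igha probe sets passed (log2 changes 2.20 to 2.81, adjusted p between 0.138 and 0.176). Without wild-type replicate 2 all 3 passed, with log2 changes of 3.92 to 4.65 and adjusted p between 0.00933 and 0.0122. Wild-type replicate 2 was also the highest wild-type array for most B cell genes. Ms4a1, the CD20 antigen, read 196, 2394 and 118 on wild-type replicates 1 to 3, and Cd79a, part of the B cell receptor, 108, 588 and 83.4. It was highest too for the T cell gene Cd3d (89.7, 305 and 83.3) and the lymph node venule gene Glycam1 (18.9, 355 and 5.3). It was not for the T cell gene Cd3e (42.9, 41.3 and 110.5) or the B cell gene Ebf1 (711, 669.5 and 522). The summed signal of the measured B cell list ran from 2032 to 8562 over the wild-type arrays, 2639 to 3954 outside the lesion and 8711 to 25471 in ATLO. What part B cells or other lymphoid tissue had in the Igha signal of that array was not tested.

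IgG transcripts were read through 4 probe sets named Ighg3. Ighg3 1427503_at varied widely between ATLO arrays, at 38999.7, 7996, 309 and 4550.3 in ATLO, 418, 87.6, 1902 and 550.1 outside the lesion and 97.2, 66.1 and 553 in wild type. ATLO replicate 1 was 126 times replicate 3, which lay inside the ranges of the other groups, and the order of these 2 arrays was the opposite of the one in the set of 5 Ighm probe sets. The probe set did not pass between ATLO and outside-lesion (log2 change 3.37 ± 1.24, adjusted p = 0.0526) and passed against wild type (4.91 ± 1.34, adjusted p = 0.0163). Neither side of the threshold held throughout. The call over wild type was lost without wild-type replicate 1 (adjusted p = 0.0582) or 2 (0.0626) and with no filter (0.0743). Over outside-lesion it passed without ATLO replicate 3 (adjusted p = 0.00432), outside-lesion replicate 3 (0.033) or wild-type replicate 3 (0.0498), and with log2(value + 50), the floor at the 30th or the filter at the 60th percentile (0.047 to 0.0495). Ighg3 1447998_at was dim but separated, with 123, 123, 92.4 and 141 in ATLO and at most 43.5 on any other array (log2 change over outside-lesion 1.68 ± 0.31, adjusted p = 0.00123). As all but 1 of the other arrays lay at the floor, that change is an underestimate. This probe set was bright enough to be tested on ATLO arrays alone, so its call is no independent support for a rise. The 2 untested Ighg3 probe sets passed 100 only once, with 148 for 1426199_x_at on ATLO replicate 2.

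**Figure D3:**
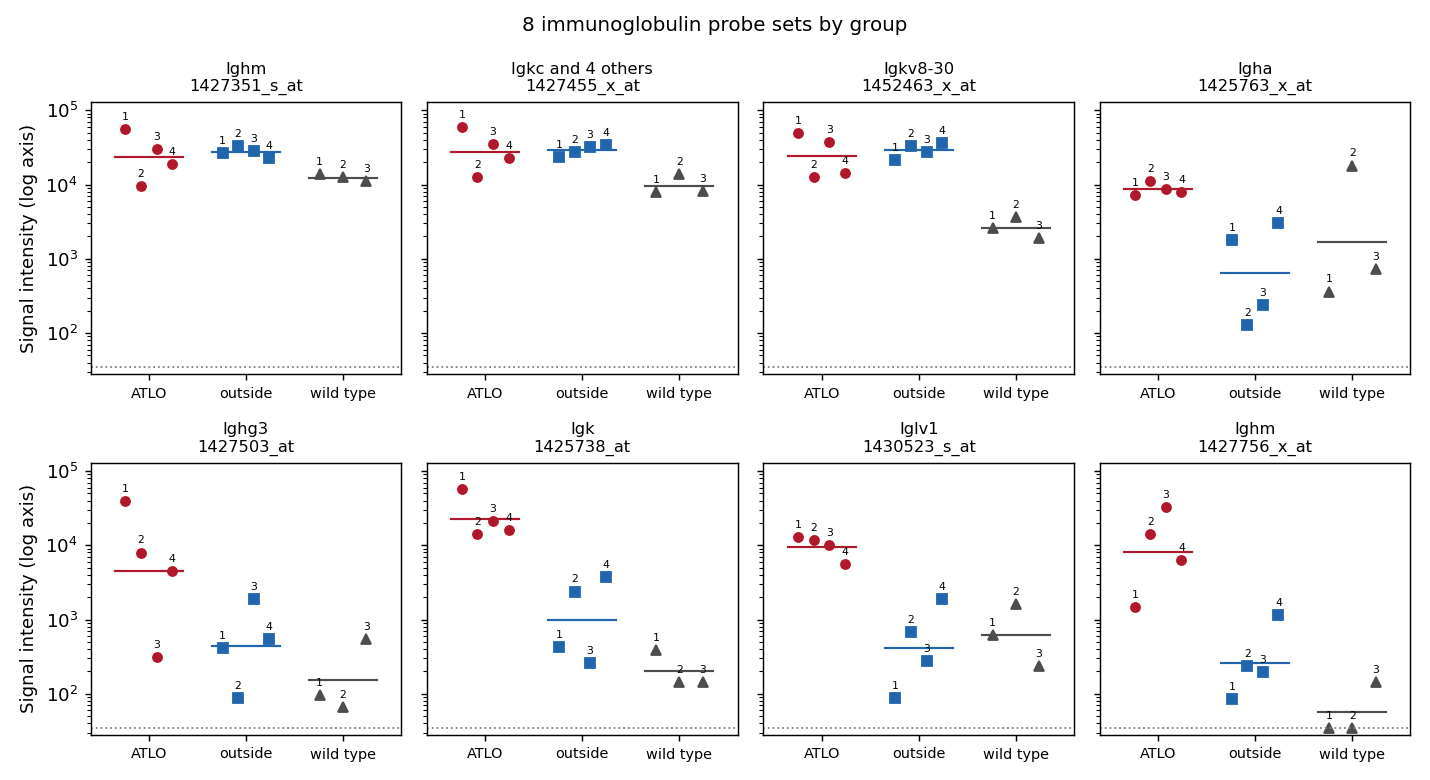
Signal of 8 immunoglobulin probe sets by group on a log axis, with 1 point per array, its replicate number above it, a bar at the mean of the log2 values and a dotted line at the floor of 35.1. Ighm 1427351_s_at, Igkc and Igkv8-30 sit at like levels in ATLO and outside the lesion, Igha is high in ATLO and on wild-type replicate 2, and the lower row is high mainly in ATLO.

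Variable region probe sets of the heavy chain were few. Ighv14-2 1455530_at read 757, 3112, 373 and 2408 in ATLO, 60.7, 93.5, 294 and 290.5 outside the lesion and 80.0, 735 and 14.5 in wild type, so ATLO lay above outside-lesion without overlap while wild-type replicate 2 reached into the ATLO range. It rose over outside-lesion (log2 change 3.02 ± 0.89, adjusted p = 0.019) and over wild type (3.24 ± 0.96, adjusted p = 0.024). The probe set naming Ighv1-72 and Ighm, 1427851_x_at, rose as well, by 2.56 ± 0.65 over outside-lesion (adjusted p = 0.00854) and 3.24 ± 0.70 over wild type (adjusted p = 0.00473). Its ATLO signals were 810.5, 1065, 275 and 368, and outside-lesion replicate 4, at 350.0, overlapped them. Both calls over outside-lesion were lost with an actin covariate (adjusted p = 0.324 for 1455530_at and 0.205 for 1427851_x_at). That of 1455530_at was lost too without ATLO replicate 2 or 4 or outside-lesion replicate 1 (adjusted p between 0.0564 and 0.0653) and with no filter (0.0847). Its call over wild type was lost without ATLO replicate 2 (adjusted p = 0.0677) or 4 (0.0625), without wild-type replicate 1 (0.0854) or 3 (0.12) and with no filter (0.0919). With array weights 1427851_x_at missed the threshold over outside-lesion (adjusted p = 0.0508). The 3 probe sets naming Ighv14-2, Ighg3 and Ighm together were not tested and lay between 1.9 and 109 on all arrays.

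Kappa is the light chain of most mouse antibodies, and its probe sets fell into a bright, shared part and an uneven part. The shared part held 3 probe sets naming Igkc, the kappa constant gene, with Igkj1 and 3 variable genes, and Igkv8-30 1452463_x_at. Igkc 1427455_x_at read 59049.7, 12664, 35007 and 22534 in ATLO, 23243, 27588, 32308 and 34159 outside the lesion and 7978, 13712 and 8165 in wild type. All 4 outside-lesion arrays lay above wild type and inside the ATLO range. Its change between ATLO and outside-lesion was -0.07 ± 0.38 (95% interval -0.88 to 0.75, limma adjusted p = 0.913), and that between outside-lesion and wild type 1.59 ± 0.41 (adjusted p = 0.0528). The other 2 Igkc probe sets had intervals of -1.42 to 0.19 (1427660_x_at) and -1.24 to 0.31 (1452417_x_at) for ATLO against outside-lesion and did not pass (adjusted p = 0.235 and 0.359). Without ATLO replicate 1, 1427660_x_at passed as lower in ATLO (-0.99, adjusted p = 0.0303). Over wild type 1452417_x_at rose outside the lesion (log2 change 1.92 ± 0.39, adjusted p = 0.0269; not without outside-lesion replicate 1 or 4 or any wild-type array, 0.0538 to 0.0911, nor with no filter, 0.0764, or an actin covariate, 0.0893), and 1427660_x_at missed the threshold (1.54 ± 0.40, adjusted p = 0.0545). Both 1427660_x_at and 1427455_x_at passed there without ATLO replicate 1 (adjusted p = 0.0314 and 0.032), with equal array medians (0.0412 and 0.0377), the filter at the 60th percentile (0.0464 and 0.0435), only the groups compared (0.0117 and 0.0337) and array weights (0.0148 and 0.0156). The floor at the 30th percentile called 1427455_x_at as well (0.0492). ATLO rose over wild type in 1427455_x_at (log2 change 1.52, adjusted p = 0.0151) and 1452417_x_at (1.46, 0.0147). Both calls were lost with no filter (0.0609 and 0.0582) and without wild-type replicate 3 (0.062 and 0.0562), the first also without wild-type replicate 1 (0.0628). There 1427660_x_at did not pass (0.93, 0.105), but did without ATLO replicate 2 (0.00486), with an actin covariate (0.029) and with array weights (0.0308).

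Igkv8-30 1452463_x_at showed the clearest step from wild type, at 2572, 3646 and 1916 in wild-type replicates 1 to 3, 21300.2, 32872, 27554 and 36042 outside the lesion and 50162, 12661, 37187 and 14444 in ATLO. The wild-type arrays lay below every Apoe-/- array. It rose outside the lesion by a log2 change of 3.46 ± 0.43 (adjusted p = 0.00336) and in ATLO by 3.21 ± 0.43 (adjusted p = 2.82e-04), and the 2 Apoe-/- groups differed by -0.26 ± 0.40 (95% interval -1.11 to 0.60, adjusted p = 0.662). In all 4 shared probe sets ATLO replicate 1 was highest and replicate 2 lowest. Quantile normalization, which gives every array the same highest value, and leaving out ATLO replicate 2 left each of the 4 uncalled between ATLO and outside-lesion. Without ATLO replicate 2, all 3 Igkc probe sets passed between outside-lesion and wild type (adjusted p between 0.0084 and 0.0202). Igk 1452557_a_at, at 2719, 606, 1110.4 and 1104 in ATLO against 1042, 1540.4, 1584 and 1619 outside the lesion, also did not pass in any comparison.

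Most other kappa probe sets that were tested rose in ATLO over at least 1 other group. Igk 1425738_at read 57922, 14117, 21190.4 and 15954 in ATLO, 428, 2386, 257 and 3693 outside the lesion and 386, 146 and 146 in wild type. Every ATLO array lay above every other array. Its log2 changes were the largest of the kappa chain, 4.53 ± 0.74 over outside-lesion (adjusted p = 4.46e-04) and 6.83 ± 0.80 over wild type (adjusted p = 1.32e-04). Igkv9-120 1460423_x_at, at 4457, 8035, 2107 and 2136 in ATLO and 338, 95.1, 121 and 838 outside it, rose by 3.90 ± 0.61 (adjusted p = 3.18e-04) without overlap. Igkv6-14 1427860_at (log2 change 4.13), Igkv14-111 1451951_at (3.62), the probe set naming Igkv4-55 and Igkv4-68 (2.99), Igkv4-68 1427857_x_at (2.09) and Igk 1426178_at (1.54) rose over outside-lesion too. Groups overlapped in 1427860_at and 1427857_x_at, where ATLO replicate 4, at 383 and 127, lay under outside-lesion replicate 4, at 420 and 305. The 3 probe sets naming Igkv6-14, Igkv6-23 and Igkv8-19, which share their targets, rose together by 2.76, 2.68 and 2.62. In 1451965_at (2.68) the groups overlapped, with ATLO replicate 4 at 610 and outside-lesion replicate 3 at 968. Another of the 3, 1427576_at, also rose outside the lesion over wild type, with 142, 223, 341 and 519 against 39.4, 89.9 and 89.8 (log2 change 2.00 ± 0.45, adjusted p = 0.0344). That call was lost without outside-lesion replicate 3 or 4 or any wild-type array (adjusted p between 0.074 and 0.12), and with no filter, only the groups compared, no intensity trend, the replicate block or an actin covariate (0.0558 to 0.0997).

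Other kappa variable probe sets were bright on some ATLO arrays and dim on others, and did not pass over outside-lesion. Igkv6-20 1451962_at read 43.6, 5139.8, 26174 and 1035 on ATLO replicates 1 to 4, a range of 600-fold between replicates 3 and 1 (log2 change over outside-lesion 2.44 ± 1.73, adjusted p = 0.314). Outside the lesion it was split likewise, at 19.3, 61.1, 2047 and 1595, with replicates 3 and 4 above ATLO replicates 1 and 4. Igkv15-103 1427837_at was highest on ATLO replicate 1, at 4995, 1897, 409.7 and 198, and also read 1262 on outside-lesion replicate 2 and 1111 on wild-type replicate 2, both above ATLO replicates 3 and 4 (adjusted p = 0.297 over outside-lesion). Igkv4-72 1426201_at ran from 4879 on ATLO replicate 1 to 84.9 on replicate 4, and passed over wild type (log2 change 4.46, adjusted p = 0.00568) but not over outside-lesion (adjusted p = 0.106).

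All 3 lambda probe sets rose in ATLO over both other groups and separated it from outside-lesion without overlap. Iglv1 1430523_s_at read 12891, 11790.4, 10039.8 and 5522 in ATLO, 87.3, 679, 273 and 1894 outside the lesion and 614, 1599.5 and 234 in wild type. ATLO was even here, and the outside-lesion and wild-type ranges overlapped. Its log2 change was 4.52 ± 0.77 over outside-lesion (adjusted p = 6.01e-04) and 3.97 ± 0.83 over wild type (adjusted p = 0.00401). The probe set naming the lambda constant gene Iglc1 with Iglv1, 1424931_s_at, read 4132, 12152, 3597 and 6964 in ATLO against 55.8, 218, 263 and 522 in outside-lesion arrays (log2 change 4.88 ± 0.72, adjusted p = 2.26e-04). Iglv1 1427292_at was dimmer, with 163, 485, 67.2 and 127 in ATLO, and changed by 2.04 (adjusted p = 0.00896), a call lost with an actin covariate (adjusted p = 0.225). Its call over wild type (adjusted p = 0.0311) was lost without wild-type replicate 1 (adjusted p = 0.105) or 3 (0.106), with the floor at the 30th percentile (0.0733) and with no filter (0.0727). None of the 3 passed between outside-lesion and wild type (log2 changes -0.55, 0.56 and -0.24, adjusted p between 0.7 and 0.824). Of the 3, 1427292_at was bright enough to be tested on ATLO arrays alone, so its calls add no independent support.

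Igll1 encodes lambda 5, a part of the surrogate light chain of precursor B cells in bone marrow, and its probe sets were dim. Igll1 1420176_x_at read 36.6, 24.4, 34.5 and 18.8 in ATLO, 86.1, 106, 122 and 50.7 outside the lesion and 142, 24.7 and 10.6 in wild type. ATLO lay below outside-lesion without overlap, and the change of -1.29 ± 0.47 missed the threshold (adjusted p = 0.0533). It passed as lower in ATLO under quantile normalization (adjusted p = 0.0437) and with equal array medians (adjusted p = 0.0390). It passed too with only the groups compared (adjusted p = 0.0273), no intensity trend (0.0336) and without outside-lesion replicate 4 (0.0354). Igll1 1420177_at ran the other way, at 91.7, 86.1, 60.3 and 94.1 in ATLO and at most 8.8 elsewhere, and was not tested.

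Single probe sets of the chains were set against each other by taking, on each array, the log2 signal of the brightest Ighg3, Igha, kappa and lambda probe set minus that of the brightest Ighm probe set, 1427351_s_at. For lambda this difference was -1.29 ± 1.08 (SD, n = 4) on ATLO arrays, -6.04 ± 1.95 (n = 4) on outside-lesion arrays and -4.34 ± 1.31 (n = 3) on wild-type arrays. ATLO did not overlap with either group, and its mean lay 4.74 above that outside the lesion and 3.05 above that of wild type (exact two-sided permutation test, p = 0.029 each, the smallest possible, and adjusted p = 0.171 over 12 tests). Igha 1425763_x_at moved by 3.98 more than Ighm 1427351_s_at between ATLO and outside-lesion (exact p = 0.0571, adjusted p = 0.171) and Ighg3 1427503_at by 3.60 more (exact p = 0.114, adjusted p = 0.229), both with overlap. For the kappa probe set 1427455_x_at the same shift was 0.16 (exact p = 0.429, adjusted p = 0.468). None of the 12 tests passed after adjustment, which the smallest p possible with so few arrays makes hard to reach. The differences hold for these probe sets and not for the chains. Between ATLO and outside-lesion, Ighm 1427756_x_at, 1425324_x_at and 1425247_a_at changed by 4.96, 4.74 and 4.17, all above Igha (3.76) and Ighg3 (3.37), and the first 2 above lambda (4.52). Against any of these 3 Ighm probe sets the differences of Igha and Ighg3 turn sign. Within kappa, Igk 1425738_at changed by 4.53 where 1427455_x_at changed by -0.07, and the median of the 29 was 1.71. IgD and IgE were not analysed here.

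Spread between arrays of a group was wide for many of these probe sets, but not for them alone. The B cell gene Ms4a1 read 693 to 5007 on ATLO arrays and 118 to 2394 on wild-type arrays. Cd72, another B cell gene, was even in ATLO, at 1221 to 1669. How far the spread of the members goes beyond that of B cell genes was not tested. In ATLO, 27 of the 41 tested members (65.9%) differed by more than 4-fold between the highest and the lowest array, where 2.14% of all tested probe sets did. Outside the lesion 21 did (51.2%, beside 4.79%) and in wild type 15 (36.6%, beside 2.46%). The median within-group SD on the log2 scale was 1.02 in ATLO, 0.95 outside the lesion and 0.70 in wild type for the 41, against 0.29, 0.30 and 0.23 for all tested probe sets. These shares describe the arrays and were not tested. On 4 of the 41 the highest ATLO array was more than 4 times the next: Ighm 1452535_at and Igkv9-120 1452536_s_at on replicate 2, Ighg3 1427503_at on replicate 1 and Igkv6-20 1451962_at on replicate 3.

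No single ATLO array was highest throughout. Over all 57 probe sets, replicate 1 was highest for 19, replicate 2 for 24, replicate 3 for 11 and replicate 4 for 3. The array order with replicate 1 first and replicate 2 last held for 8 tested probe sets, among them the 3 Igkc probe sets and Ighm 1427351_s_at and 1427329_a_at. An order of 3, 2, 4 and 1 held for 6, the set of 5 Ighm probe sets and Igkv6-20 1451962_at. Outside the lesion replicate 4 was highest for 32 of 57 and replicate 1 lowest for 32. In wild type replicate 2 was highest for 28. These counts over all 57 use signals before the floor was set. They include 2 probe sets at the floor on every ATLO array, 6 on every outside-lesion array and 16 on every wild-type array, whose order has no meaning.

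**Figure D4:**
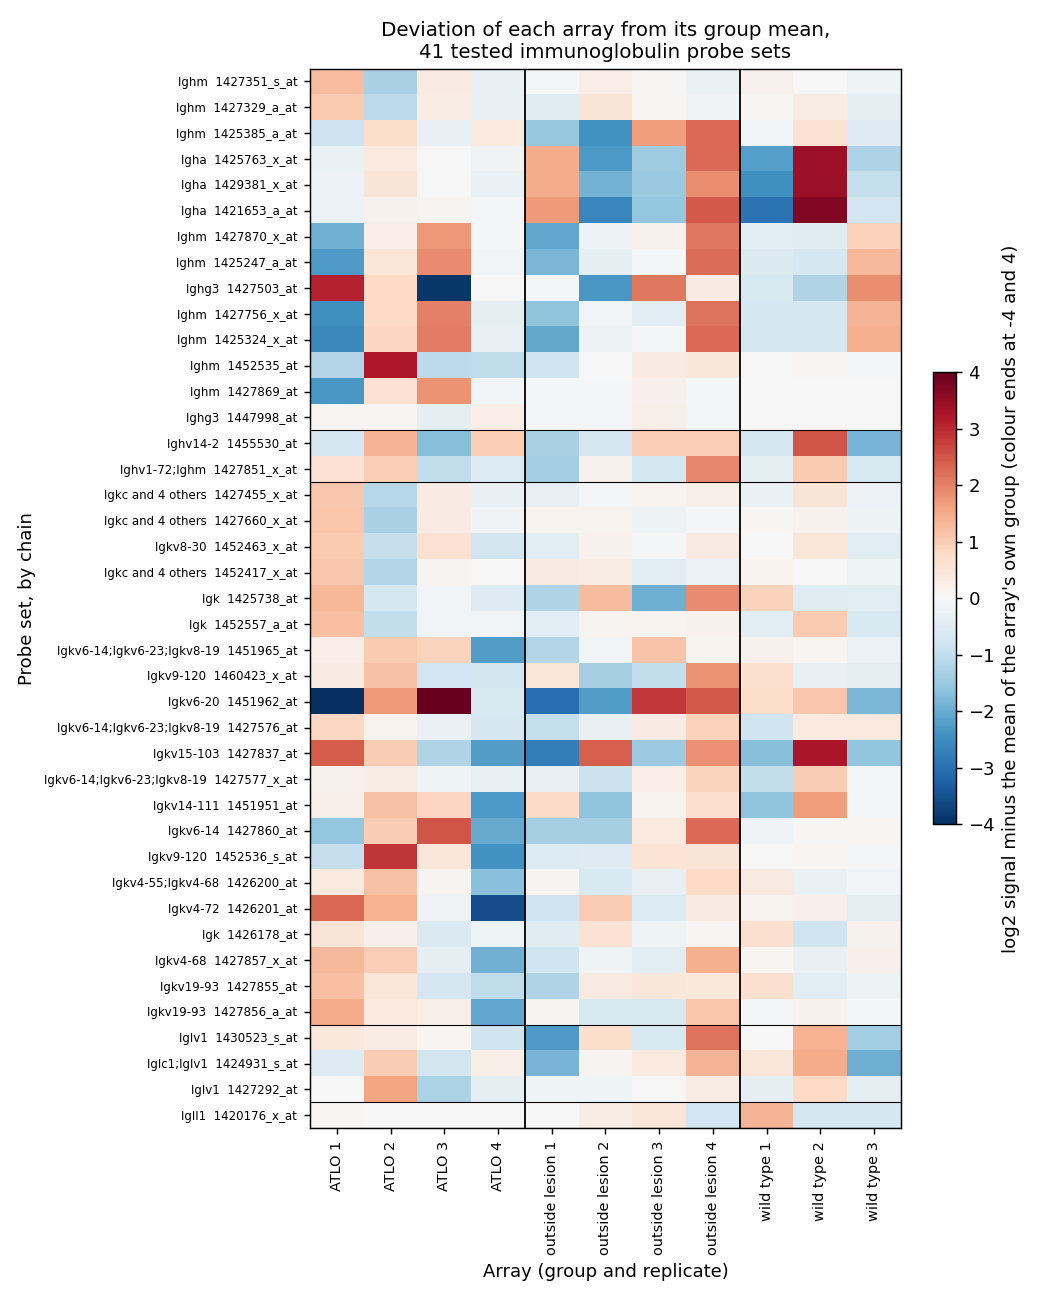
Deviation of each array's log2 signal from the mean of its own group for the 41 tested immunoglobulin probe sets, by chain, with red above and blue below the group mean. The Igkc rows and the brightest Ighm rows vary little outside the lesion, the set of 5 Ighm rows is red on ATLO replicate 3 and blue on replicate 1, and the Igha rows are red on wild-type replicate 2.

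Genes that accompany antibody production were counted with 1 probe set per gene, beside 19.8% of 9055 genes that rose and 14.9% that fell between ATLO and outside-lesion. Of 14 B cell genes measured, 12 rose and 1 fell (median log2 change 2.55, beside 0.11 for all genes). Fcrla, an intracellular protein of B cells (log2 change 3.00 ± 0.46, adjusted p = 2.82e-04), and Cd79a (log2 change 3.11 ± 0.55, adjusted p = 7.76e-04) rose most, and Ebf1, a B cell transcription factor that fat tissue also expresses, fell (-1.01). Of 17 plasma cell genes measured 16 rose (median 1.76). Jchain, which links the units of secreted IgM and IgA, read 41691, 13095, 27022 and 15754 in ATLO against 2544, 6343, 6509 and 7553 outside the lesion. All ATLO arrays lay above all outside-lesion arrays (log2 change 2.05 ± 0.53, adjusted p = 0.0102). Pou2af1, a coactivator of immunoglobulin promoters (log2 change 4.37 ± 0.75, adjusted p = 6.49e-04), and Creld2, a protein of the endoplasmic reticulum (log2 change 2.99 ± 0.46, adjusted p = 2.83e-04), rose most. Mzb1 was not analysed here.

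Against wild type, 8 of 14 B cell genes and 14 of 17 plasma cell genes rose in ATLO and 0 fell, beside 13.4% of all genes that rose. The largest changes were those of Cd72 (3.09), Cd79a (2.87), Pou2af1 (4.62) and Fkbp11 (2.53), a secretory pathway protein. Between outside-lesion and wild type, where the 4 shared kappa and the 2 brightest Ighm probe sets lay higher without overlap, 0 of 14 B cell and 0 of 17 plasma cell genes were called by limma, beside 1.4% of genes that rose and 1.68% that fell (at an unadjusted p under 0.05, 1 B cell gene was higher and 1 plasma cell gene lower). Median log2 changes there were -0.20 and -0.07, beside -0.12 for all genes. Jchain did not pass, at 2544, 6343, 6509 and 7553 against 3122, 11019 and 1620.4 (log2 change 0.47 ± 0.58, adjusted p = 0.653), and wild-type replicate 2 was above every outside-lesion array.

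Of 8 genes measured in the list for germinal centres and class switching, 5 rose in ATLO over outside-lesion. They were Batf (2.10), a transcription factor needed for switching, Cd40 (1.93), which receives T cell help, the cytokine Il21 (1.75), Gcsam (1.24) and Icosl (0.78). Bcl6, the regulator of germinal centre B cells, did not pass (log2 change 0.09 ± 0.43, adjusted p = 0.897). Neither did Fas (-0.10, adjusted p = 0.767) or Ung (-0.27, adjusted p = 0.538). Mybl1, Mef2b, Cd40lg and Il4 of that list were too dim to be tested. Of 3 genes measured for early B lineage and recombination, Igll1 among them, 0 were called in any comparison (limma; at an unadjusted p under 0.05, 1 higher and 1 lower between ATLO and outside-lesion), and Rag1, a subunit of the enzyme that joins V, D and J segments, was not above 24.0 on any array. Of 7 genes measured for antibody receptors and transport, 5 rose. Fcgr2b, the inhibitory IgG receptor (log2 change 2.30 ± 0.22, adjusted p = 1.75e-05), and Fcgr1, the high-affinity IgG receptor (log2 change 2.15 ± 0.27, adjusted p = 7.37e-05), changed most, and Fcgrt, the neonatal receptor that protects IgG from breakdown, did not pass (log2 change -0.52 ± 0.21, adjusted p = 0.0738). Pigr, which carries IgA and IgM across epithelia, was too dim to be tested, at 19.8 to 82.9.

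Markers of other cells moved with the groups as well. Of 10 T cell genes 9 rose in ATLO over outside-lesion, of 10 macrophage genes 7 rose, and of 8 adipocyte genes 7 fell. The summed adipocyte signal was 31898 to 88357 in ATLO, 149912 to 241099 outside the lesion and 86893 to 116833 on wild-type arrays, so it was highest outside the lesion with no overlap. None of the 8 passed there over wild type, and 4 were higher at an unadjusted p under 0.05 by limma. Neither of the 2 measured erythroid genes was called in any comparison. Of 4 genes measured for high endothelial venules and lymph node stroma, 2 rose, Cxcl13 (2.46) and Cxcr5 (1.71). Glycam1, a mucin of lymph node venules, read 514, 1649, 7.5 and 541 in ATLO and did not pass (log2 change 2.45, limma adjusted p = 0.0899). Cr2 did not pass either (limma adjusted p = 0.0908). Madcam1, Chst4 and Fut7 of that list were too dim to be tested. What part the other cell types had in the immunoglobulin signals was not tested.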

How the data were processed

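The authors deposited 1 linear intensity per probe set and array, made with GCOS 1.4 per the submitters' processing notes. How probes were summarised is not stated in the sources used. The mean of each array with 2% trimmed at each end was close to 500, and array medians lay between 151.5 and 191. Control probe sets (64) were left out, values under 35.1, the overall 20th percentile, were set to it, and log2 was taken. Testing needed 3 arrays or more above the array's 40th percentile. The limma 3.58.1 model (R 4.3.3) had 1 mean for each group, used all 11 arrays and had eBayes with a trend, with Benjamini-Hochberg adjustment over 14988 probe sets, at 0.05. Errors are standard errors for log2 changes and SD for array values, and the number of arrays limits the precision. Symbols come from the platform annotation, and 28 of the members' 29 gene IDs matched RefSeq's mouse genes (GRCm38.p6). The files name no genome build, so no coordinates are printed.

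The model was tested on simulated data: with 100 changes of 2-fold and 100 of 4-fold planted among 14988 probe sets, it recovered 48% and 82% when ATLO was set against outside-lesion. It recovered 38% and 87% when ATLO was set against wild type. The shares were 51% and 93% for outside-lesion over wild type. False calls numbered 8, 3 and 10 in the 3 comparisons. These shares need not hold for the immunoglobulin probe sets, which spread more within groups. Their median log2 SD was 1.02, 0.95 and 0.70 in ATLO, outside-lesion and wild type, against 0.29, 0.30 and 0.23 for all tested. Probe sets described singly are every heavy constant and Igll1 probe set, the 4 brightest and those of extreme change in each other chain, and those called between outside-lesion and wild type. In the B cell and plasma cell lists the rule named the 2 called genes of largest change per comparison, and Cd79a, Jchain, Pigr and Fcgrt. Other kappa probe sets and list genes were named after their values were seen. Members and lists were chosen with earlier results of these data known. Alternatives covered scaling, floor, filter, model terms, array weights, probe set type and left-out arrays.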

Additional observations from a re-analysis of the deposited data

Results flagged for a closer look

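In groups of 4 arrays, 26 of the probe sets described singly were checked for an array far from the rest, by the gap to its neighbour as a share of the group's range on the log2 scale. Of 52 such groups 4 passed Dixon's critical value, and chance alone passes about 1 in 20 groups. Ighm 1452535_at had ATLO replicate 2, at 3951, far above the other ATLO arrays, at 186.5 to 207 (share 0.966). Ighm 1427869_at and Ighg3 1447998_at each had outside-lesion replicate 3 as the single outside-lesion array above the floor, at 42.3 and 43.5 (share 1 in both). Igll1 1420176_x_at had ATLO replicate 1 as the single ATLO array above the floor, at 36.6 (share 1). In these last 3 the other arrays of the group had all been set to the floor, so that any value above it passes by construction and the chance rate does not apply. Their values lie within a few units of the floor.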

How the results depend on the processing

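Of the 57 probe sets, 25 were called between ATLO and outside-lesion, and the alternatives other than those below gave 17 to 27. Against wild type the 29 calls became 21 to 31. With single arrays left out the first count ran from 17 to 27, the second from 22 to 30 and that of outside-lesion over wild type from 1 to 7. The 17 came without ATLO replicate 2. The 4 calls between outside-lesion and wild type became 7 with equal array medians, 1 with no filter on dim probe sets, 7 with only the groups compared, 2 with no intensity trend, 2 with the replicate number as a block (replicate block), 1 with an actin covariate and 8 with array weights. They were 2 without outside-lesion replicate 1 or 3, 1 without outside-lesion replicate 4 or any 1 wild-type array, and 7 without ATLO replicate 2. Of all probe sets tested, 3.26% were called there in the main fit. The share was 4.26% with equal medians, 1.33% with no filter, 1.35% with only the groups compared and 1.65% with no trend. It was 1.26% with the block, 0.574% with an actin covariate and 10.2% with array weights. It was 1.37% and 1.12% without outside-lesion replicate 1 or 3, 0.76% without replicate 4, 0.141% to 0.714% without a wild-type array and 4.71% without ATLO replicate 2. Among the 17 tested probe sets with a plain _at suffix, 11, 14 and 1 were called in the 3 comparisons, fewer by construction. Leaving out ATLO replicate 2 and wild-type replicate 2 together, chosen after seeing the data, gave 21, 28 and 4. Over all probe sets, 4777 were called between ATLO and outside-lesion, and 2552 with an actin covariate. The share of all probe sets tested ran from 17% to 40.5% there over the fits, and from 16% to 33.2% for ATLO against wild type. Apart from the constructions named, the cause was not tested.

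Whether same-numbered arrays pair was not settled. Between ATLO and outside-lesion, deviations from group means correlated at 0.04 to 0.15, and 4 of 8 arrays correlated best with their own number. For ATLO and wild type the values were 0.005 to 0.27 and 5 of 6. For outside-lesion and wild type they were -0.18 to 0.12 and 3 of 6. Correlations passed 0.1 in 2 of 4, 2 of 3 and 1 of 3 pairs. With the replicate block 25, 29 and 2 probe sets were called, beside 31.7%, 25.5% and 1.26% of all tested. The exact tests between probe sets of different chains could hardly pass with so few arrays, so their p-values say nothing about stability. Between ATLO and outside-lesion the differences of Igha and Ighg3 from Ighm depend on the Ighm probe set taken. For single probe sets, no called change reversed in any fit, 80 values fell below the threshold and 54 passed it newly. These were among 1812 alternative values, counts of calls included. Whether signals near the highest of an array narrow the changes of the shared kappa and Ighm probe sets was not tested, and values at the floor have no order.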
